A study of Mus musculus with 8 samples.

Results

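The voltage-gated sodium and calcium channels, the HCN channels and the TRP channels are among the pores through which sodium and calcium enter nerve cells. On this array they were represented by 98 probes for 65 gene names, found by matching the name given to each non-control probe to the symbols of the pore-forming and auxiliary subunits (Scn, Cacna, Cacnb, Cacng, Trpc, Trpm, Trpv and Hcn). The array held 39429 non-control probes with 30419 gene names in all. Of the members, 77 probes and 54 genes were kept for testing, because their spots were well above background on at least 4 of the 8 arrays, and 26066 probes and 20118 gene names were kept over the whole array. The match took in Trpc4ap, a protein that binds TRP channels and is no channel itself, and it missed the sodium channel gene Scn2a, which the files list under an older symbol.

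The study compared total RNA from the brains of mice fasted for 17 h with that of mice fed over the same time, on 4 single-colour arrays per group. The labels give no strain, sex, age, brain region or number of animals per sample, and no genotype or agent beside the diet. P-values therefore reflect only how these samples vary, and that variation may be technical. The arrays lay on 2 slides, each with 2 fasted and 2 fed samples. Fasted samples occupied positions 1 and 3 and fed samples positions 2 and 4 of each slide, so position and fasting cannot be told apart.

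Voltage-gated sodium channels carry the upstroke of the action potential, and their pore-forming alpha subunits are accompanied by small beta subunits that set gating and surface level. Voltage-gated calcium channels admit calcium on depolarization, which triggers transmitter release and drives pacemaking and burst firing, with alpha2delta and beta subunits that bring the pore to the membrane. HCN channels open on hyperpolarization and are regulated by cyclic nucleotides, while TRP channels respond to lipids, calcium store depletion, temperature or chemical ligands.

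Each probe is an oligonucleotide of 60 bases, and the first 30 are printed for the genes on which the results turn. They are shown because in 3 of these genes the call at the threshold depended on which probe was read. The sequences are those of the scanner files, 5′ to 3′, in lower case because no motif is singled out, with mm9 coordinates of the whole probe and the strand of the gene. The exon or untranslated region under each probe was not analysed here.
Scn10a, chr9:119517585-119517644, minus strand: tgctcgcagttgccggacaatacctgaggg
Cacna1g, brighter probe, chr11:94269863-94269922, minus strand: catcttcaacggaaagcgagaaccattttg
Cacna1g, dimmer probe, chr11:94270459-94270518, minus strand: aagaaagatgcgctgagtctctctggtttg
Cacna1i, brighter probe, chr15:80228652-80228711, plus strand: atagagaaaccaagccgcaccgccagccag
Cacna1i, dimmer probe, chr15:80225995-80226054, plus strand: aggcacagctggcctccggcttcggctcct
Trpc2, brightest probe, chr7:109243013-109243072, plus strand: attttccggttcctttgctgtggctcctcc
Trpc2, probe nearest the end of the gene, chr7:109244789-109244848, plus strand: cactaagtgcagctgctgtgttgggtagag
Trpc2, probe nearest the start of the gene, chr7:109231358-109231417, plus strand: catggcttgtaagggtttgagcaaatctca
Trpm3, brighter probe, chr19:22841152-22841211, plus strand: tctcatcgtggaaggaggacccaatgtgat
Trpm3, dimmer probe, chr19:23000491-23000550, plus strand: ctggccaagaatatcttctacatgccttat

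Signals are given as log2 of the processed intensity minus the array's 75th percentile, so a value of 0 is the brightness of a probe at that percentile. A difference is the mean of the 4 fasted arrays minus the mean of the 4 fed arrays on that log2 scale. A gene is said to have risen or fallen where its adjusted p from limma was under 0.05, with Benjamini-Hochberg adjustment over all kept probes. A gene with several kept probes is represented by the one of highest mean signal. In whole-brain RNA, fewer cells of a type and less RNA per cell cannot be told apart.

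A few of these channels differed between fasted and fed brain, mostly by small amounts. Of the 54 genes, 5 rose (Scn10a, Trpm3, Trpm6, Cacna2d3 and Trpc4) and 5 fell (Cacna1g, Cacnb3, Cacna1i and Hcn2 among them), or 18.5% against 17.2% of all genes on the array. Over all genes 8.48% rose and 8.7% fell. The share of channel genes that passed was therefore near that of the array, and so is no result about channels as a class. Scn10a was kept only through its fasted arrays, so its being among the genes that passed follows in part from that choice. Median differences were -0.05 for the channel genes and -0.01 for all genes. The median size of the difference, whatever its sign, was 0.10 in both. Of the channel genes 37 were lower and 17 higher in fasted brain. The same count was not made over all genes, so it is no result about channels as a class. With each array scaled to its median, the median differences were -0.03 for the channel genes and 0.01 for all genes.

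By probe, 14 of 77 passed, 7 in each direction, against 16.9% of all kept probes, of which 8.4% rose and 8.55% fell. The fasted and fed arrays did not overlap in 12 of the channel genes, against 25.1% of all genes. Among the 10 genes that passed, the 4 fasted and 4 fed arrays did not overlap in 9, and all 10 had differences of the same sign on both slides. Both counts follow largely from the test that picked these genes on the same arrays, and add no separate support. Within a slide, with 2 arrays against 2, no channel gene passed the limma adjusted threshold. Unadjusted limma p-values under 0.05 were found for 18 channel genes on slide 1, or 33.3% against 22.1% of all genes, and for 7 on slide 2, or 13.0% against 15.1% of all genes.

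**Figure D1:**
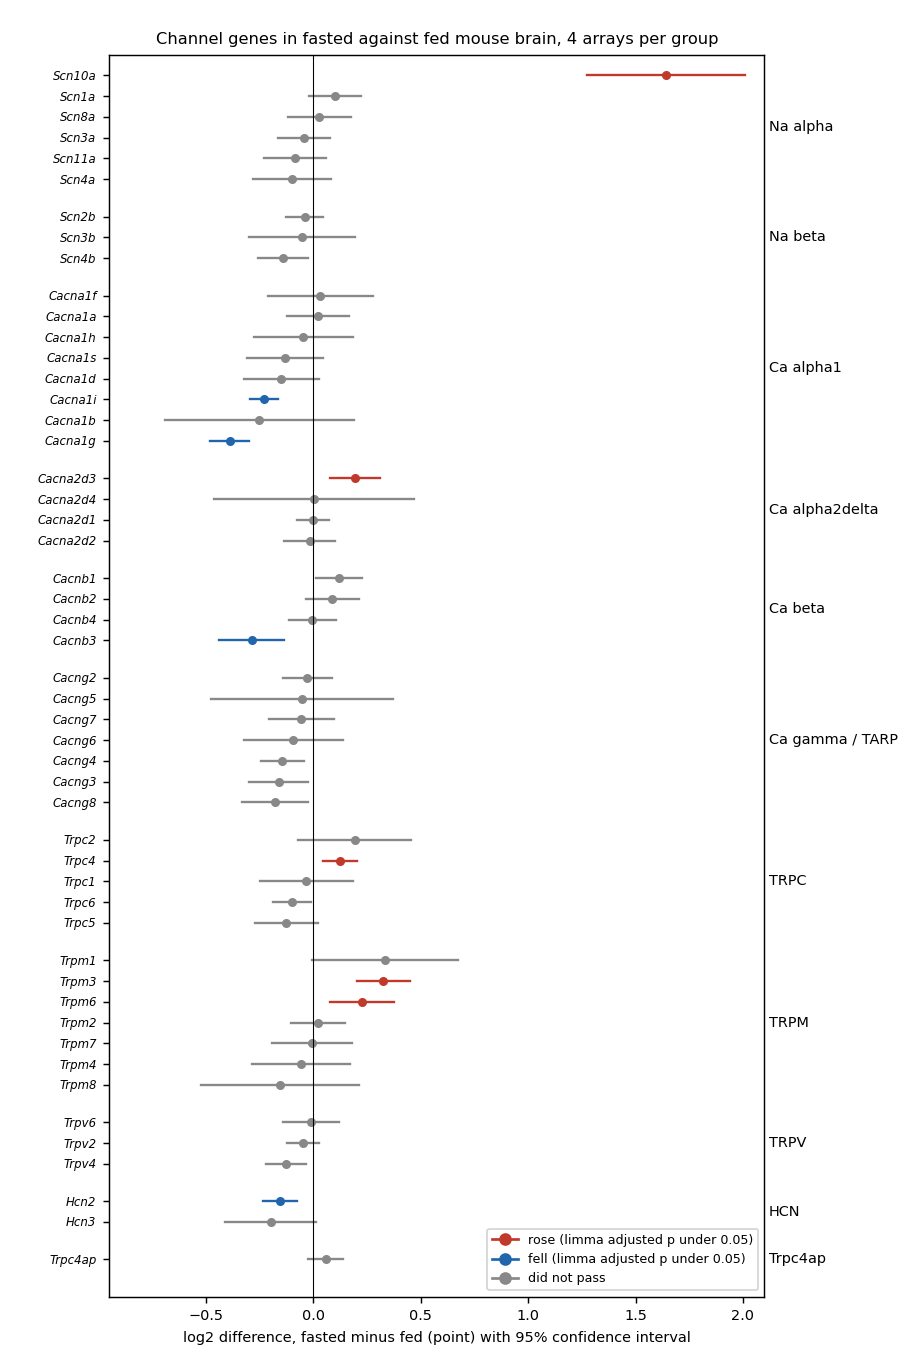
The plot gives the log2 difference, fasted minus fed, of 50 channel genes by their brightest kept probe, ordered by subunit class, with limma 95% confidence intervals over 4 arrays per group. Scn10a stands apart at 1.64, with fed spots not well above background, while the other genes that passed lie between -0.39 and 0.33 and most intervals cross 0.

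The pore-forming sodium channel subunits held the single large difference. Scn10a encodes the tetrodotoxin-resistant sodium channel known from pain-sensing neurons of the dorsal root ganglia. Its signal was -3.58, -3.56, -3.72 and -3.78 in fasted replicates 1 to 4, and -5.45, -4.94, -5.71 and -5.11 in fed replicates 1 to 4. Every fasted array was brighter than every fed array. The probe was well above background on all 4 fasted arrays and on no fed array, so no fed level can be read. For each fed array a level was set at the lowest signal of any probe well above background, or the Scn10a probe's own where higher. The fasted mean was 2.01-fold above the mean of these levels on the processed signal. That is no strict lower bound, because spots not well above background can read higher. Those lowest signals ran from -4.99 to -4.38. Trpm8, well above background on only 2 fed arrays, read -3.78, -3.82, -4.31 and -4.13 in fed replicates 1 to 4. The measured means were -3.66 ± 0.11 (SD, n = 4) fasted and -5.30 ± 0.35 (SD, n = 4) fed. Their difference of 1.64 (limma adjusted p = 0.00144 for that difference) gives no size, since the fed spots were not well above background. With the normexp background correction the difference was 0.55 on the log2 scale, which is smaller than 2.01-fold, and it still passed.

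Genes that mark sensory ganglion neurons were read beside Scn10a. Of 8 such genes 5 were kept. Their summed linear signal, relative to the 75th percentile, ran from 9.38 to 10.2 over the fasted arrays and from 8.31 to 8.92 over the fed arrays, but Tac1 alone made up 92.1% of it. Without Tac1 the sums of the other 4 overlapped, at 0.682 to 0.776 fasted and 0.666 to 0.727 fed, and none of the 4 passed. Tac1, the precursor of substance P, rose by 0.20 (limma adjusted p = 0.0143). With it 20% of the kept markers passed, against 17.2% of all genes. Tac1, Calca and Isl1 are also made by brain neurons. Mrgprd and Avil, which are more restricted to those neurons, were among the genes not kept. The part of such cells in the Scn10a difference was not tested.

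The sodium channels that dominate in brain did not pass by their brightest probes. Scn1a, the channel of fast-spiking inhibitory neurons, differed by 0.10 (95% interval -0.02 to 0.22). Its second probe lies at chr2:66173498-66173557. That probe read -0.84, -0.84, -0.86 and -0.91 in fasted and -0.98, -1.08, -1.07 and -1.10 in fed replicates 1 to 4, with no overlap, and rose by 0.19 ± 0.04 (SE; limma adjusted p = 0.0142). Scn8a, the channel of the axon initial segment and nodes, differed by 0.03 (95% interval -0.12 to 0.17), and Scn3a, the embryonic channel, by -0.04 (95% interval -0.17 to 0.08). Scn11a, another channel of pain-sensing neurons, differed by -0.09 (95% interval -0.23 to 0.06), and Scn4a of skeletal muscle by -0.10. Scn7a and Scn9a were not kept.

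The beta subunits Scn2b, Scn3b and Scn4b lay below 0, between -0.14 and -0.04, and none passed. Scn4b, a beta subunit rich in striatum and linked to resurgent current, was the lowest, at -0.14 (95% interval -0.26 to -0.03, limma adjusted p = 0.0898).

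Outside the channels, 15 partners of sodium channels and relatives of the family were measured, of which 2 rose and 1 fell. That is 20% of the list, against 17.2% of all genes. Fgf14, an intracellular factor that binds sodium channels at the initial segment, rose by 0.16 and Nedd4l, a ubiquitin ligase of sodium channels, by 0.18. Fgf11, a relative of Fgf14, fell by 0.40 on the log2 scale. Scn2a, the sodium channel of excitatory axons, differed by 0.08 (limma adjusted p = 0.240).

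Among the 8 kept calcium channel alpha1 subunits, 2 passed and both fell, or 25% that passed against 17.2% of all genes. Both encode low-voltage-activated T-type channels, which open near the resting potential and support burst firing. Cacna1g, rich in thalamic relay neurons, read 0.39, 0.52, 0.49 and 0.50 in fasted replicates 1 to 4 and 0.91, 0.83, 0.87 and 0.85 in fed replicates 1 to 4. The groups were far apart relative to their spread, with SDs of 0.06 and 0.03. Cacna1g fell by 0.39 ± 0.04 (SE) on the log2 scale, or 1.31-fold (limma adjusted p = 0.00154), and was lower in all 4 fasted arrays. Its dimmer probe, which together with the brighter one spans 656 bases, read 0.20, 0.37, 0.32 and 0.31 fasted and 0.50, 0.38, 0.47 and 0.49 fed. These groups did not overlap either, though fasted replicate 2 and fed replicate 2 nearly met, and the difference was -0.16 (limma adjusted p = 0.0519).

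Cacna1i, the slow T-type channel of the thalamic reticular nucleus, was the one channel gene in which every kept probe passed where more than 1 was kept. The brighter probe read 1.79, 1.80, 1.80 and 1.77 in fasted and 2.01, 2.0, 2.05 and 2.02 in fed replicates 1 to 4. These are the tightest groups of any channel that passed, and they did not overlap. Cacna1i fell by 0.23 ± 0.03 (SE) on the log2 scale, or 1.17-fold (limma adjusted p = 0.00283). The dimmer probe read -2.20, -2.12, -2.17 and -2.33 fasted and -2.02, -1.93, -1.95 and -1.89 fed, and fell by 0.26 ± 0.05 (SE) on the log2 scale (limma adjusted p = 0.0152). Both probes were lower in fasted brain on both slides.

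The T-type gene Cacna1h did not pass on any of its 3 probes, whose differences ran from -0.21 to 0.18. Its brightest probe differed by -0.05 (95% interval -0.28 to 0.18), and fasted replicates 1 and 3 (0.55 and 0.47) lay well under fasted replicates 2 and 4 (0.88 and 0.87). Whether the T-type genes differ from one another in response was not tested.

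The high-voltage-activated pores did not pass. Cacna1a, the presynaptic P/Q-type channel, differed by 0.02 (95% interval -0.12 to 0.17), and Cacna1d, an L-type channel used in pacemaking, by -0.15 (95% interval -0.32 to 0.03). Cacna1b, the N-type channel of presynaptic terminals, differed by -0.25, and its interval of -0.69 to 0.19 was wide. Cacna1f of the retina and Cacna1s of skeletal muscle differed by 0.03 and -0.13. Cacna1c, the main L-type channel of brain and heart, and Cacna1e, the R-type channel, were not kept. The Cacna1c probe was well above background on 0 fasted and 3 fed arrays and the Cacna1e probe on 2 fasted and 1 fed.

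**Figure D2:**
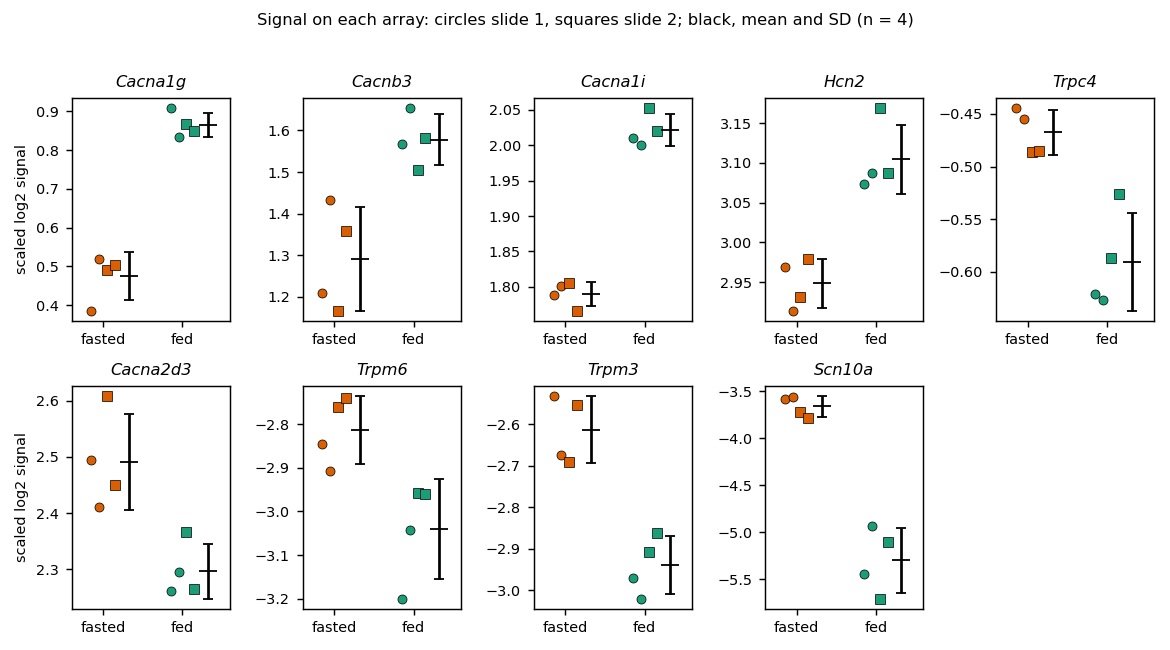
Each panel plots the scaled log2 signal of 1 gene on the 4 fasted and 4 fed arrays, circles for slide 1 and squares for slide 2, with the group mean and SD in black, and with its own vertical axis. The genes were picked by a test on these arrays, and the fasted and fed points stand apart in all 9 panels. The fed points of Scn10a are not well above background.

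Of the auxiliary calcium channel subunits, one alpha2delta gene rose and one beta gene fell. Cacna2d3, an alpha2delta subunit involved in synapse formation and in pain and hearing, read 2.49, 2.41, 2.61 and 2.45 in fasted and 2.26, 2.29, 2.37 and 2.26 in fed replicates 1 to 4. The lowest fasted array lay just above the highest fed array. Cacna2d3 rose by 0.19 ± 0.05 (SE), or 1.14-fold (limma adjusted p = 0.0342). Leaving out fasted replicate 1 or 4, or fed replicate 1, 2 or 4, ended the call, with limma adjusted p-values of 0.0572 to 0.0812, as did scaling each array to its median (limma adjusted p = 0.0623) and testing without the filter on dim probes (limma adjusted p = 0.0797).

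The other alpha2delta genes did not pass. Cacna2d1, a receptor of gabapentin-type drugs, differed by 0.00 with a narrow interval of -0.08 to 0.08. Cacna2d2, the other such receptor, differed by -0.02, and Cacna2d4 of the retina by 0.00 with an interval of -0.46 to 0.47.

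Cacnb3, a cytoplasmic beta subunit, read 1.21, 1.43, 1.17 and 1.36 in fasted and 1.57, 1.65, 1.51 and 1.58 in fed replicates 1 to 4. All fasted arrays were lower, and they were more spread than the fed. Cacnb3 fell by 0.29 ± 0.07 (SE) on the log2 scale, or 1.22-fold (limma adjusted p = 0.0231). The call ended when fasted replicate 1, or fed replicate 1, 2 or 4, was left out (limma adjusted p-values of 0.0521 to 0.0629), with normexp (limma adjusted p = 0.0851) and without the filter on dim probes (limma adjusted p = 0.0547).

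Cacnb2, the beta subunit best known from heart, did not pass by its brighter probe, which differed by 0.09 (limma adjusted p = 0.281). Its dimmer kept probe read -2.46, -2.51, -2.40 and -2.55 in fasted and -2.67, -2.79, -2.69 and -3.04 in fed replicates 1 to 4, without overlap, and rose by 0.32 ± 0.08 (SE; limma adjusted p = 0.0349). Cacnb1 differed by 0.12 (95% interval 0.01 to 0.23, limma adjusted p = 0.114), and Cacnb4, the cerebellar beta subunit, by 0.00 (95% interval -0.11 to 0.10).

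None of the 7 kept gamma genes passed. By their brightest kept probes all 7 lay below 0, with a median of -0.09, a count not made over all genes. The other kept Cacng7 probe differed by 0.05. Most of the gamma genes, including Cacng2 (stargazin), Cacng3, Cacng4 and Cacng8, encode TARPs, which carry AMPA-type glutamate receptors to synapses. Cacng8 differed by -0.18 (95% interval -0.33 to -0.02), Cacng3 by -0.16 (95% interval -0.30 to -0.02), Cacng4 by -0.14 (95% interval -0.25 to -0.04) and Cacng2 by -0.03 (95% interval -0.14 to 0.08). For Cacng3 (limma adjusted p = 0.102) and Cacng4 (limma adjusted p = 0.0594) the fasted and fed arrays did not overlap. Cacng3 fell with the slide as a block (limma adjusted p = 0.0169) or with replicates blocked by number (limma adjusted p = 0.041). Cacng4 fell when probes had to be well above background on all 8 arrays, or without fed replicate 3. Of the 8 AMPA receptor subunits and companions, Gria1 rose by 0.18 and the others did not pass, or 12.5% against 17.2% of all genes.

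Among 18 calcium channel partners, 1 rose and 1 fell, or 11.1% against 17.2% of all genes. Erc2, a scaffold of the presynaptic active zone, rose by 0.22. Gem, a small GTPase that holds back calcium channels and is induced by activity, fell by 0.59 on the log2 scale (limma adjusted p = 0.0399).

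HCN channels carry the current that paces rhythmic firing. Hcn2, the cyclic AMP-sensitive channel of thalamus, read 2.97, 2.91, 2.93 and 2.98 in fasted and 3.07, 3.09, 3.17 and 3.09 in fed replicates 1 to 4. The groups did not overlap. Hcn2 fell by 0.16 ± 0.03 (SE) on the log2 scale, or 1.11-fold (limma adjusted p = 0.0204). Its second probe, which together with the first spans 240 bases, read 2.07, 2.02, 2.15 and 1.96 fasted and 2.14, 2.14, 2.07 and 2.06 fed, with overlap, and differed by -0.05 (limma adjusted p = 0.504). The call on the first probe was lost with the replicate number as a block (limma adjusted p = 0.0545), with scaling to the median (limma adjusted p = 0.0936), and with normexp (limma adjusted p = 0.0576). It was also lost without the filter on dim probes (limma adjusted p = 0.0583), with the mean of both probes (limma adjusted p = 0.0561) and without fasted replicate 2 (limma adjusted p = 0.0577).

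Hcn3 differed by -0.20 (95% interval -0.41 to 0.01) and fell with the slide as a block (limma adjusted p = 0.00883) or the replicate number as a block (limma adjusted p = 0.0268). Hcn4 was not kept. None of the 6 kept HCN partners passed, against 17.2% of all genes.

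By their brightest kept probes, 1 of 6 canonical and 2 of 7 melastatin TRP genes rose, and none of 3 vanilloid genes passed. These are 16.7%, 28.6% and 0%, against 17.2% of all genes. A dimmer Trpc2 probe, given below, fell by 0.49 on the log2 scale (limma adjusted p = 0.00263). Trpm3, a channel opened by heat and by the steroid pregnenolone sulfate and abundant in choroid plexus, read -2.53, -2.67, -2.69 and -2.55 in fasted and -2.97, -3.02, -2.91 and -2.86 in fed replicates 1 to 4. Every fasted array was brighter than every fed array. Trpm3 rose by 0.33 ± 0.05 (SE), or 1.25-fold (limma adjusted p = 0.0071), with 0.39 on slide 1 and 0.26 on slide 2. Its second kept probe, on the same strand and farther along the gene, read -2.78, -2.73, -2.88 and -2.82 fasted and -2.82, -2.84, -2.82 and -2.96 fed. There the groups overlapped and the difference was 0.05 (limma adjusted p = 0.479). On the fed arrays the second probe was the brighter, at -2.86 on average against -2.94. The first probe thus represents the gene only through its fasted arrays, and the Trpm3 call follows in part from that choice. With normexp the first probe gave 0.18, and it still passed.

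Choroid plexus markers moved both ways, and 33.3% of them passed, against 17.2% of all genes. Of 6 kept, Clic6 rose by 0.33, the potassium channel gene Kcnj13 fell by 0.28 on the log2 scale, and Ttr, the most specific of them, differed by -0.05 (limma adjusted p = 0.592). Their summed linear signal ran from 37.0 to 40.8 over the fasted and from 37.6 to 42.7 over the fed arrays, with Ttr making up 86.7% of it. Without Ttr the sums were 5.17 to 5.64 fasted and 4.80 to 5.50 fed.

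Trpm6, a channel-kinase for magnesium, read -2.85, -2.91, -2.76 and -2.74 in fasted and -3.20, -3.04, -2.96 and -2.96 in fed replicates 1 to 4, without overlap. Trpm6 rose by 0.23 ± 0.06 (SE), or 1.17-fold, at the edge of the threshold (limma adjusted p = 0.0494). Leaving out any 1 of the 8 arrays ended the call, with limma adjusted p-values of 0.0562 to 0.113, as did several other settings. With normexp the difference was 0.09 (limma adjusted p = 0.368).

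Trpc4, a calcium-permeable channel downstream of Gq-coupled receptors, read -0.44, -0.45, -0.49 and -0.48 in fasted and -0.62, -0.63, -0.59 and -0.53 in fed replicates 1 to 4. The fasted arrays were all higher. Trpc4 rose by 0.12 ± 0.03 (SE), or 1.09-fold (limma adjusted p = 0.0433). Its second probe, which together with the first spans 177 bases, differed by 0.00 (95% interval -0.08 to 0.08), with fasted arrays at -1.33, -1.34, -1.40 and -1.39 and fed arrays at -1.40, -1.33, -1.38 and -1.34. Among other settings, the call was lost with the replicate number as a block (limma adjusted p = 0.0906), with the mean of both probes, which gave 0.06 (limma adjusted p = 0.210), and without any 1 array other than fed replicate 4 (limma adjusted p-values of 0.0589 to 0.105).

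Trpc2 encodes the pheromone transduction channel of vomeronasal neurons. One of its 3 kept probes fell while its brightest did not pass and lay above 0. The probe nearest the end of the gene read -4.08, -3.91, -4.06 and -3.99 in fasted and -3.54, -3.49, -3.64 and -3.41 in fed replicates 1 to 4. The groups were well separated, and this probe fell by 0.49 ± 0.06 (SE) on the log2 scale (limma adjusted p = 0.00263), on both slides. The brightest probe read -0.74, -1.14, -0.71 and -1.17 fasted and -1.07, -1.19, -1.09 and -1.18 fed, and differed by 0.19 (limma adjusted p = 0.281). Fasted replicates 1 and 3 were high there while fasted replicates 2 and 4 lay in the fed range. The remaining probe differed by 0.01 (limma adjusted p = 0.898). The 3 probes span 13491 bases.

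Of the other canonical TRP genes, Trpc1, Trpc5 and Trpc6 differed by -0.03, -0.13 and -0.10, and Trpc7 was not kept. Trpc6, a diacylglycerol-gated channel, had an interval of -0.19 to -0.01 (limma adjusted p = 0.114). Trpc4ap differed by 0.06.

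Of the other kept melastatin genes, Trpm1, the channel of retinal bipolar cells, had the largest difference, 0.33, with a wide interval of -0.01 to 0.67. Its arrays read 0.79, 0.55, 0.65 and 1.05 fasted and 0.64, 0.15, 0.26 and 0.65 fed, with overlap. It rose with the replicate number as a block (limma adjusted p = 0.0265). None of the 3 kept retina markers passed. Trpm2, an oxidant-sensitive channel found in microglia and in warmth-sensing hypothalamic neurons, differed by 0.02 on its brighter probe and by 0.51 on its dimmer one (95% interval 0.11 to 0.90, limma adjusted p = 0.0843). On the dimmer probe the fasted arrays lay between -2.77 and -2.72, while fed replicates 1 and 3 stood at -2.92 and -2.91 and fed replicates 2 and 4 at -3.57 and -3.62. Trpm7, Trpm4 and Trpm8 differed by -0.01, -0.06 and -0.16. Trpm5, a cation channel of taste cells, was not kept, since its probe was well above background on 0 fasted and 2 fed arrays. It measured -5.59 on average over the fasted and -4.32 over the fed arrays, and it was among the genes that passed when dim probes were not filtered (limma adjusted p = 0.00463), with no size to be read from a probe at background.

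The vanilloid genes were the least well measured, with 3 of 6 kept. Trpv4, an osmosensor of glia and choroid plexus, differed by -0.13 (95% interval -0.22 to -0.04, limma adjusted p = 0.0655). Trpv2 differed by -0.05 and Trpv6, an epithelial calcium channel, by -0.01. The heat and capsaicin receptor Trpv1, the skin channel Trpv3 and the renal channel Trpv5 were not kept.

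Among 14 kept relatives of TRP channels and genes of store-operated calcium entry, 3 rose and 1 fell, or 28.6% against 17.2% of all genes. Orai2 and Orai3, pores of store-operated channels, rose by 0.20 and 0.25. Stim1, a calcium sensor of the endoplasmic reticulum that opens them, rose by 0.20, and Stim2, its more sensitive counterpart, fell by 0.14 on the log2 scale.

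Probes of the same gene did not always give the same call. Of the 18 channel genes with at least 2 kept probes, 7 had at least 1 probe that passed and at least 1 that did not, or 38.9%, against 26.6% of all such genes. They were Scn1a, Cacna1g, Cacnb2, Hcn2, Trpc2, Trpc4 and Trpm3. A probe that passed beside one that missed the threshold does not show that the probes differ, and that difference was not tested.

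**Figure D3:**
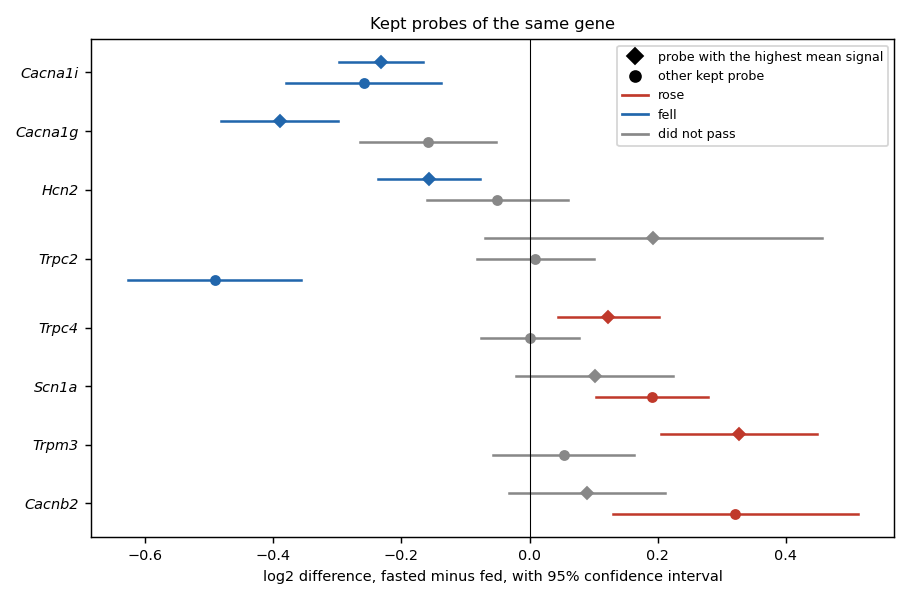
For Cacna1i and for the 7 genes with 1 probe past the threshold and another not, the plot gives each kept probe's log2 difference, fasted minus fed, with its limma 95% confidence interval, the brightest probe as a diamond. Both Cacna1i probes lie near -0.25, while the Trpc2 probes run from -0.49 to 0.19 and the Trpm3 probes from 0.05 to 0.33.

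Over all 54 genes, 38 had the same sign on both slides. Cacna1g differed by -0.42 on slide 1 and -0.36 on slide 2, Cacna1i by -0.21 and -0.25, Cacnb3 by -0.29 and -0.28, and Hcn2 by -0.14 and -0.17. Trpm6 differed by 0.24 and 0.21, Cacna2d3 by 0.17 and 0.21, and Trpc4 by 0.18 and 0.07. Cacng5 was the gene most at odds between slides, at 0.26 and -0.37. It was chosen after its values were seen.

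**Figure D4:**
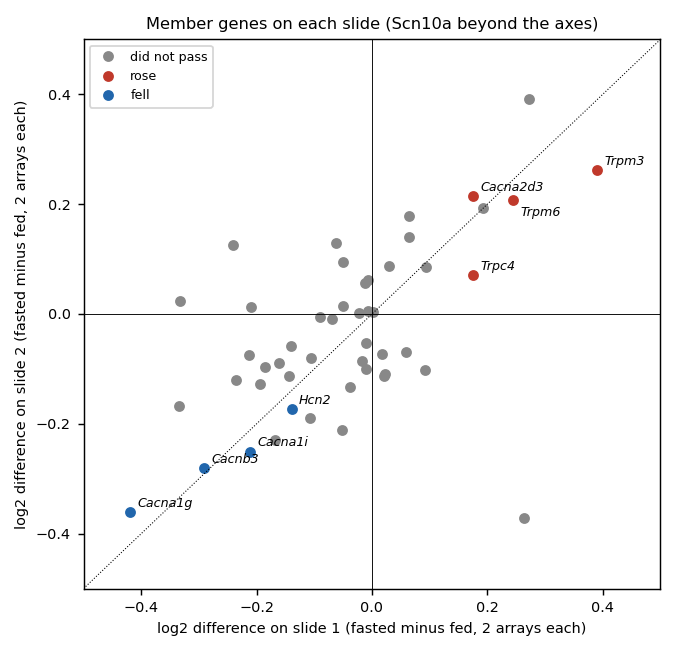
Each point is 1 of 50 channel genes, with its log2 difference, fasted minus fed, on slide 1 across and on slide 2 upward, each from 2 fasted and 2 fed arrays, and the dotted line marks equal values. The genes that rose lie upper right and those that fell lower left, which follows largely from their choice on both slides together. Scn10a is beyond the axes, its fed spots not well above background.

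Of the 10 genes that passed, 4 did so under every alternative processing that could test them, which left out the fits within a single slide. Cacna1g, Cacna1i and Trpm3 passed in 19 of 19, and Scn10a in 18 of 18, since it is left out where a probe must be well above background on all 8 arrays. Except for the mean of a gene's probes, these runs read Trpm3 by the probe that its fasted arrays made the brighter. Scn10a was kept only through its fasted arrays, and the filter was not set anew when an array was left out. The Scn10a count therefore follows in part from that choice. Cacnb3 and Hcn2 passed in 13 of 19, Cacna2d3 in 12, Trpc4 in 6 and Trpm6 in 5.

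**Figure D5:**
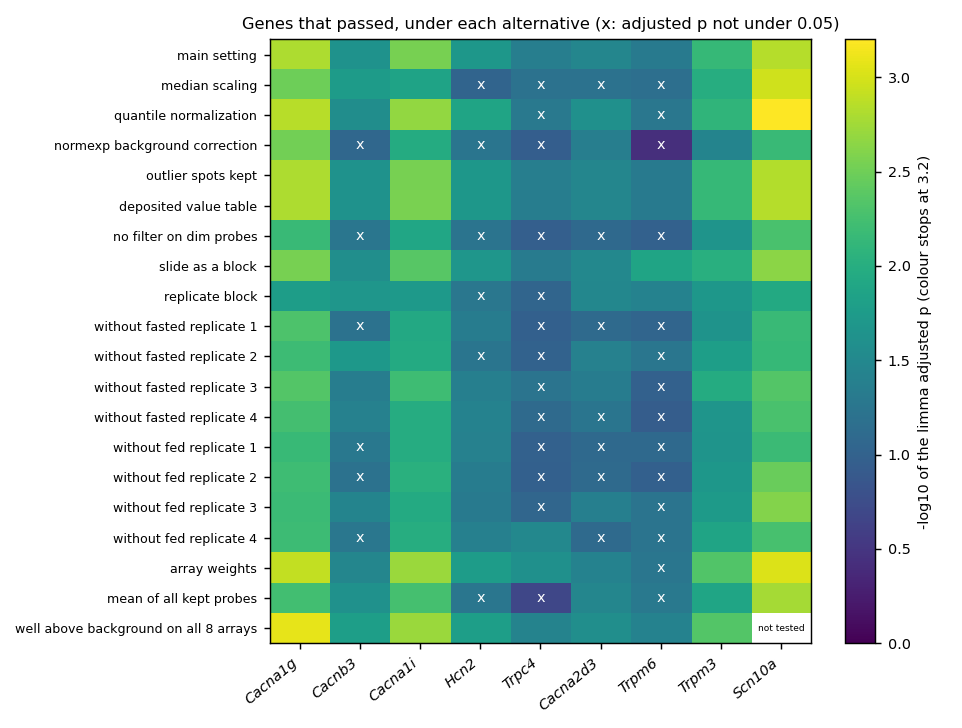
Rows are the processing used here and the 19 alternatives, columns 9 channel genes that passed, colour is -log10 of the limma adjusted p, and a cross marks an adjusted p of 0.05 or more. Cacna1g, Cacna1i, Trpm3 and Scn10a have no cross, and Trpm6 has the most.

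Markers of other brain cells gave the following values beside these results. Over all genes 8.48% rose and 8.7% fell, or 17.2% in all. None of 10 neuronal markers passed, and their summed linear signal ran from 187 to 198 fasted and from 178 to 189 fed. Of 8 oligodendrocyte markers 5 fell, and of 7 microglia markers 4 fell, with sums of 44.3 to 49.3 fasted and 46.4 to 50.8 fed. Astrocyte markers, of which 1 of 7 rose and 1 fell, summed to 49.8 to 52.2 fasted and 45.4 to 48.0 fed. Without their brightest genes, Itgam and S100b, the microglia sums were 17.6 to 20.1 fasted and 20.9 to 22.7 fed, and the astrocyte sums 30.5 to 31.1 fasted and 27.3 to 29.2 fed, neither with overlap. The part of cell composition in the channel results was not tested.

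RefSeq promoters (GRCm38.p6, 250 bases before to 50 after a start) were matched to 52 of the channel genes and searched on both strands for 4 short motifs. The cAMP response element TGACGTCA was in 0 of them, against 2.03% of all 27025 genes, and the E-box CACGTG in 3, or 5.77%, against 8.09%. The GC box GGGCGG was in 22, or 42.3%, against 38.2%, and the TATA box TATAAA in 6, or 11.5%, against 15.7%. Of the 8 genes that passed and had a promoter, 4 held the GC box (Cacna2d3, Cacnb3, Hcn2 and Trpc4) and 1 the TATA box (Trpc4). These are counts of letters in a window, and no test was made of them. The search was added after the expression results were seen.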

How the data were processed

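RNA from fasted and fed mouse brain was labelled with Cy3 and hybridised to 8 single-colour arrays. The titles of the samples gave group and replicate. Each spot has an intensity in the deposited scanner files. Per the file headers they were made with Feature Extraction 11.0.1.1, whereas the submitters' processing notes name 10.10.1.1. The flags for outlier, saturated and well-above-background spots are also the deposited ones. A series table, also deposited, gives 1 ratio per spot. Compared with the scanner files, that ratio was the 75th-percentile-scaled signal divided by a factor fixed for each probe (SD over arrays 0.000179 in log2), so its scale and direction are settled and its baseline stays unknown. Its column medians were 0.970, 0.993, 0.973 and 0.987 (fasted 1 to 4) and 0.987, 1.02, 0.991 and 1.02 (fed 1 to 4).

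Processed signals were taken to log2 and the array's 75th percentile (1651 to 1944 intensity units) was subtracted. Control spots and outlier-flagged spots (128 to 217 per array) were left out, no spot was saturated, and spots of a probe were averaged. An array had 62.3% to 69.0% of its probes well above background. Of the channel probes, 74 to 79 were. Arrays correlated with the others of their group at 0.995 to 0.997 on average. Array number limits the precision. Probes were tested with limma 3.58.1 (R 4.3.3) in a model of 2 groups with no block. Alternatives were median scaling, quantile normalization, normexp (offset 50), outlier spots kept, the deposited table, no filter on dim probes, probes well above background on all arrays, slide or replicate number as a block, each slide alone, array weights, the mean of a gene's probes, and each array left out in turn.

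Deviations from the group means correlated at 0.18, 0.28, 0.29 and 0.18 between same-numbered fasted and fed arrays, each over 0.1, which was the criterion for treating the numbers as pairs in the alternative with a replicate block. Differently numbered arrays of the same slide correlated at 0.27, 0.13, 0.11 and 0.05. Same-numbered arrays also share a slide and lie at neighbouring positions, which cannot be told apart from pairing.

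Genes given array by array were those that passed, those well above background on every array of 1 group and none of the other, and those with probes that differed in call. Trpm1, Trpm2 and Cacna1h were added after their values were seen. The members and lists were chosen with earlier results of these data known. Probe coordinates are those of the array design (mm9). RefSeq names (GRCm38.p6) were matched by accession for 27427 probes, 87 of them channel probes. For 2 Trpc2 probes the matched symbol differed, and the name in the files was kept. Some genes are counted but not reported here by name.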

Additional observations from a re-analysis of the deposited data

Results flagged for a closer look

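In Scn4b, which did not pass, fasted replicate 3 stood away from the rest of its group, at 3.02 against a mean of 2.89 for the other fasted arrays. In Hcn2, which fell, fed replicate 3 stood away at 3.17 against 3.08 for the other fed arrays, farther from the fasted group. Both gaps exceeded Dixon's 95% critical value for 4 samples (0.829), which chance exceeds in about 1 of 20 groups. Without fasted replicate 3, Scn4b fell.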

How the results depend on the processing

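Against 10 channel genes and 14 probes that passed, normexp gave 5 and 8, no filter on dim probes gave 5 of 65 and 8 of 98, and each slide alone gave 0 and 0 (unadjusted limma p under 0.05: 18 genes on slide 1 and 7 on slide 2). Calls fell over the whole array too: 17.2% of all genes passed in the processing used, 11.5% with normexp, 6.71% with no filter, 13.6% with median scaling, 10.8% to 14.7% with 1 array left out, and 0 within a slide. Median scaling gave 6 genes, of which 2 rose and 4 fell, and quantile normalization 9, of which 3 rose and 6 fell, against 5 and 5. Leaving out 1 array gave 5 to 9 genes and 8 to 13 probes. The lowest gene counts came without fasted replicate 1 (5), fasted replicate 2 (6), fed replicate 1 (6) and fed replicate 2 (5), and the lowest probe counts without fasted replicate 1 (8), fasted replicate 2 (9) and fed replicate 2 (9). With a replicate block 11 genes and 15 probes passed: Trpc4 and Hcn2 were lost, Trpm1, Cacng3 and Hcn3 gained, and no other gene's call changed. The median difference stayed between -0.06 and -0.03 in these settings. No call reversed. Of the 44 genes that did not pass, 8 did so in at least 1 alternative and 18 changed sign in at least 1. The causes were not tested. The mean of a gene's probes gives no count by probe. Dim members such as Scn10a, and the 11 genes not kept, are limited by signal over background.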
